A study of Mus musculus with 13 samples.

Results

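Myl4, Myl7, Sln, Dkk3 and Bmp10 are genes whose RNA marks the cardiomyocytes of the atria, and their signals were followed here in RNA of the left ventricle (LV). The members were chosen by name, with their values on these arrays already known, and every probe that carries 1 of the 5 symbols in the platform annotation was taken. These were 7 probes of 25697, and 5 genes of 16593. Because measured values led to the choice, the levels and differences of the members are given as a description and without a p-value.

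The study asked how LXRα, a nuclear receptor that senses oxysterols, acts in the heart under pressure overload. LV RNA was read on 13 Illumina mouse BeadChip arrays, of which the labels call 3 Wt sham, another 4 Wt TAC, 3 more LXRα-Tg sham and the last 3 LXRα-Tg TAC. TAC is transverse aortic constriction, a surgical narrowing of the aorta, and sham is the operation without it. All mice were labelled male, aged 4 months and of C57BL/6 background, and had the operation 5 weeks earlier. LXRα-Tg mice carry murine LXRα behind the αMHC promoter, which drives it in cardiomyocytes. The founders were FVB mice that were then bred into C57BL/6, and Wt mice are littermates without the transgene. The record of the series counts 3 per group, but 4 arrays are labelled Wt TAC and all were kept. No label states that the arrays came from different mice. P-values therefore measure only how far these arrays scatter, which may be technical. The replicate numbers below are running numbers.

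Atrial and ventricular cardiomyocytes use different forms of the contractile machinery. Myl4 and Myl7 encode the essential and the regulatory myosin light chain of the atrium, where the ventricle uses Myl3 and Myl2. Sln encodes sarcolipin, a small membrane protein that inhibits the SERCA calcium pump in the atrium, as phospholamban (Pln) does in the ventricle. Dkk3 encodes a secreted glycoprotein of the Dickkopf family, and Bmp10 a secreted ligand of the TGF-β superfamily that the adult mouse heart makes mainly in the right atrium.

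The promoter windows of Myl4, Myl7 and Bmp10 are shown as the sequence in front of these genes. They come from a table of RefSeq promoters (GRCm38.p6), in which 3 of the 5 members were matched, and run 5′ to 3′ along each gene from 250 bases before the start to 50 after it. Myl4 lies at chr11:104550413-104550712 (plus strand), Myl7 at chr11:5898733-5899032 (minus strand) and Bmp10 at chr6:87428744-87429043 (plus strand). Sln lies on chromosome 9 and Dkk3 on chromosome 7. Capitals mark a match to a motif of cardiac transcription factors.
Myl4: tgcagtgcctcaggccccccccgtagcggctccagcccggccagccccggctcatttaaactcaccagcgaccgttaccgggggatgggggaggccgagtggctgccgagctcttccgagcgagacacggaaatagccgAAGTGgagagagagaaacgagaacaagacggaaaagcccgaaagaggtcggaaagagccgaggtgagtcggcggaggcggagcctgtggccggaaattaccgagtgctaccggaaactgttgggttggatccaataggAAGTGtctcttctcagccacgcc
Myl7: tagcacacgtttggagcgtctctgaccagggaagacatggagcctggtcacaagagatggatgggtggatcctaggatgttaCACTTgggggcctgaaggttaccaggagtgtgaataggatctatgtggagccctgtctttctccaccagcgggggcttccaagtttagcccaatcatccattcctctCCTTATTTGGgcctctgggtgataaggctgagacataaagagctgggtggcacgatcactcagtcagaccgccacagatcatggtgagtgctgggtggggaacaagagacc
Bmp10: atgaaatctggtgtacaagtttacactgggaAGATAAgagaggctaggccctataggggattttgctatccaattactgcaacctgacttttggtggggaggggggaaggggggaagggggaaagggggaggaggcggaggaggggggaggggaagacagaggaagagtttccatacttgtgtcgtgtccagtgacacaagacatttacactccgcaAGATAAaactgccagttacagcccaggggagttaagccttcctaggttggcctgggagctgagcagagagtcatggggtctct
In all, 5 motifs were searched on both strands: the GATA motif AGATAA, the NKX2-5 motif AAGTG, the T-box motif AGGTGT, the CArG box and the MEF2 motif. Myl7 held a CArG box, which reads as a match on both strands, 61 bases before the start, and an AAGTG on the minus strand. The Myl4 window held AAGTG at 2 places, on either side of the start, and the Bmp10 window held AGATAA at 2 places. No match to AGGTGT or to the MEF2 motif was found in the 3 windows. Of 32851 promoters of the same length, 1.63% held a CArG box, 46.4% AAGTG, 11.2% AGATAA, 13.7% AGGTGT and 3.19% the MEF2 motif. A match describes letters only.

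Some facts of the whole series bear on the labelled groups. Nr1h3, the gene of the transgene, read 25186.7 to 31975.4 on 5 arrays and 163.2 to 396.7 on 8, and on 5 arrays it went against the genotype label (LXRα-Tg sham replicates 1 and 2, Wt sham replicate 3, Wt TAC replicate 2 and replicate 3 of LXRα-Tg TAC). The Y-linked gene Eif2s3y was below detection on Wt sham replicate 1 and LXRα-Tg TAC replicate 3, although all mice are labelled male. On these 2 arrays Xist, which is made from the silenced X chromosome of females, gave signals of 32.0 and 24.8, and it was not detected on the other 11 (at most 7.1). Wt sham replicate 3 also held the highest summed signal of 5 kidney genes (1024.7) and a liver sum of 3928.6, against liver sums of 124.0 to 3962.7 over all arrays. Directions between groups below therefore hold for the groups as labelled. The ventricular origin of the RNA showed in Myl2 (18427.4 to 33110.4) and Myl3 (18341.1 to 34934.9), whose signals were high on 13 of 13 arrays.

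Myl4, the essential light chain, was detected on 13 of 13 arrays. The deposited signal, a linear and background-subtracted intensity, was 94.6, 3452.0 and 530.2 on the Wt sham arrays (replicates 1 to 3). It was 3369.1, 1239.0, 1922.2 and 4365.8 in Wt TAC. The LXRα-Tg sham arrays read 3039.9, 4858.3 and 4707.8, and those of LXRα-Tg TAC 1278.8, 2792.2 and 5698.6. Wt sham held the lowest 2 values of the series, but its replicate 2 lay among the arrays of the other groups, so the groups overlapped. After normalization Wt sham stood at a log2 level of 9.35 ± 2.25 (SD, n = 3), Wt TAC at 11.13 ± 0.69 (n = 4), LXRα-Tg sham at 11.94 ± 0.31 (n = 3) and LXRα-Tg TAC at 11.60 ± 1.26 (n = 3).

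Myl7, the regulatory light chain, was detected on 12 of 13 arrays. Its signal was 8.4, not detected, on Wt sham replicate 1, and 465.9 and 30.3 on replicates 2 and 3. The Wt TAC arrays read 574.8, 194.5, 166.5 and 446.0, those of LXRα-Tg sham 397.9, 420.5 and 586.7, and those of LXRα-Tg TAC 143.5, 457.2 and 531.8. The same 2 Wt sham arrays were lowest, and the third lay within the range of the other groups. The log2 level was 6.42 ± 2.12, 8.20 ± 0.73, 8.78 ± 0.47 and 8.63 ± 1.27 in the 4 groups in that order.

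Sln, the inhibitor of the calcium pump, was detected on 12 of 13 arrays. It was not detected on Wt sham replicate 1 (−3.8), and read 687.2 and 30.6 on replicates 2 and 3. In Wt TAC it read 740.6, 159.1, 458.7 and 806.1. The LXRα-Tg sham arrays read 467.7, 1077.1 and 1332.8, and those of LXRα-Tg TAC 193.0, 741.6 and 1202.2. Wt sham replicates 1 and 3 were again lowest, and the groups overlapped through Wt sham replicate 2. Wt sham stood at a log2 level of 6.45 ± 2.60, Wt TAC at 8.77 ± 0.92, LXRα-Tg sham at 9.69 ± 0.81 and LXRα-Tg TAC at 9.37 ± 1.58.

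Dkk3 was read by 3 probes, of which the brightest stands for the gene. That probe read 36.8, 149.3 and 106.0 in Wt sham and 236.3, 224.9, 163.1 and 405.8 in Wt TAC. The LXRα-Tg sham arrays read 337.4, 515.3 and 415.8, and those of LXRα-Tg TAC 211.9, 177.3 and 495.4. All 3 Wt sham arrays lay below every array of the other groups, which was not so for Myl4, Myl7 or Sln. How often other genes separate in this way was not counted. The log2 level of Dkk3 was 6.82 ± 0.70, 7.92 ± 0.45, 8.63 ± 0.22 and 8.34 ± 0.81 in the 4 groups. A second probe read 22.8, 132.9 and 83.9 on the Wt sham arrays. Its range was 113.6 to 194.9 for Wt TAC, 300.9 to 372.4 for LXRα-Tg sham and 123.2 to 331.7 for LXRα-Tg TAC. By this probe Wt sham and Wt TAC overlapped. The 2 probes moved together (Pearson r = 0.960 and Spearman rho = 0.945 over 13 arrays). The third probe read −4.2 to 13.8 and was detected on 0 of 13 arrays.

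Bmp10, the atrial ligand, was detected on 0 of 13 arrays. Its signal was −4.7 to 10.1, where the lowest detected signal per array was 14.6 to 24.2, and its lowest detection p-value was 0.0802. It was thus not well above background in any group, did not pass the filter on dim probes and gives no difference. The other 4 members passed.

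**Figure D1:**
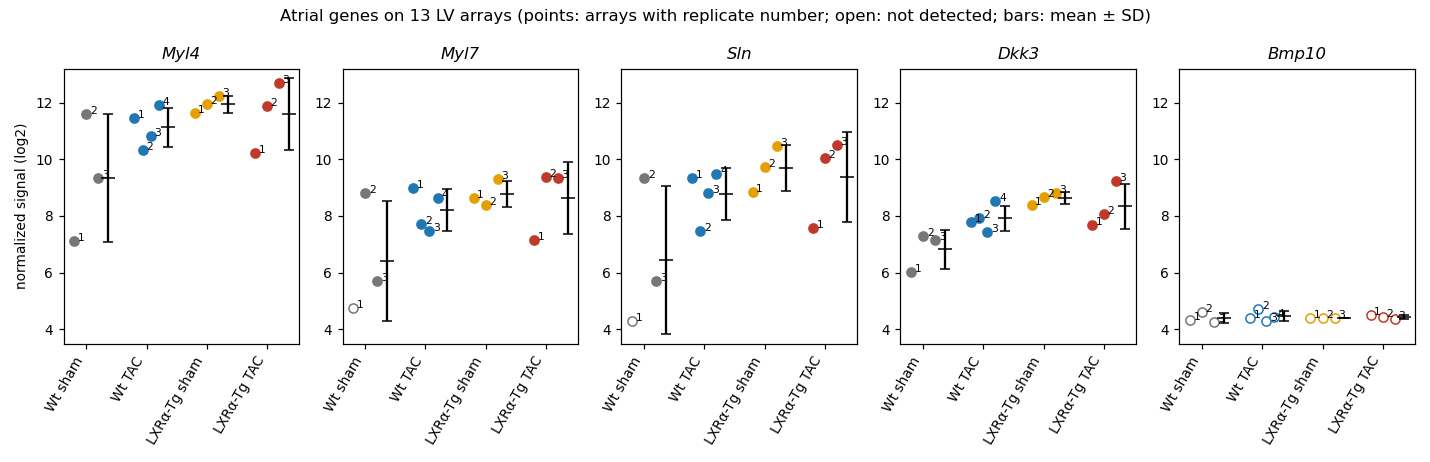
Normalized log2 signal of each member on the 13 arrays, by labelled group (Dkk3 by its brightest probe). Points are arrays with their replicate number, open points were not detected, and bars are the mean ± SD. Wt sham replicates 1 and 3 lie low for Myl4, Myl7 and Sln, and Bmp10 lies at the floor on 13 of 13 arrays.

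The order of the group means was the same for the 4 members that passed: Wt sham lowest, then Wt TAC, LXRα-Tg TAC and LXRα-Tg sham. The members were chosen for moving together on these arrays, so the shared order does not count as 4 separate results. Without the 5 arrays that go against Nr1h3, LXRα-Tg TAC lay below Wt TAC for each of the 4 (−0.40 for Sln to −0.03 for Dkk3). From Wt sham to Wt TAC the step was 1.78 for Myl4, 1.79 for Myl7, 2.32 for Sln and 1.10 for Dkk3 on the log2 scale. This was more than the SD pooled over the 4 groups (1.29, 1.26, 1.58 and 0.58). The SD of Wt sham alone was 2.25, 2.12 and 2.60 for Myl4, Myl7 and Sln, above their steps. For Dkk3 it was 0.70, below its step. The steps between the other neighbours were 0.14 to 0.60. Those steps were below the pooled SD of the same gene, so neighbours among Wt TAC, LXRα-Tg TAC and LXRα-Tg sham did not differ beyond that pooled spread.

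By its labels, LXRα-Tg sham against Wt sham asks what the transgene does without pressure overload. By signal, Nr1h3 was high on replicate 3 of both groups (25186.7 and 27568.2) and low on their replicates 1 and 2. The comparison therefore holds for the labels and does not isolate the transgene. In the arrays labelled LXRα-Tg sham the members lay higher by 3.24 (standard error 1.08) for Sln, 2.59 (0.89) for Myl4, 2.36 (0.87) for Myl7 and 1.81 (0.41) for Dkk3 on the log2 scale. Sln and Myl7 were not detected on Wt sham replicate 1, so the sizes of their differences depend on the offset of 16, which was not varied. The same holds below wherever Wt sham is used. The median of the members was 2.48, where that of all 7837 tested genes was −0.0092. These values led to the choice of the members, so a call among them is counted as a description. Of the 4 tested members 1 (Dkk3) passed the threshold of limma, an adjusted p under 0.05, and Bmp10 was not tested. The same threshold was passed by 1.58% of all tested genes (1.3% higher and 0.281% lower), and 16.1% had an unadjusted p under 0.05. Dkk3 passed in 3 of the 13 fits that left out 1 array, and not by its second probe. Dkk3 was also the 1 member whose groups did not overlap here. How many of all tested genes separate in this way was not counted. Leaving out Wt sham replicate 1 brought the median of the members to 1.50, and leaving out Wt sham replicate 2 raised it to 3.64.

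By its labels, Wt TAC against Wt sham asks what pressure overload does in wild type hearts. It shares its 3 control arrays with the comparison above. Nr1h3 was high on Wt TAC replicate 2 (31926.6) and Wt sham replicate 3 (27568.2). The differences were 2.32 (standard error 1.01) for Sln, 1.79 (0.81) for Myl7, 1.78 (0.83) for Myl4 and 1.10 (0.38) for Dkk3. The median was 1.78, against 0.016 over all tested genes. None of the 4 tested members was called by limma, and none of the 7837 genes (0%). An unadjusted p under 0.05 was reached by 539 genes, or 6.88%. The test for 2 groups named in the study's methods called 0 genes after Benjamini-Hochberg adjustment. Without Wt sham replicate 1 the median fell to 0.82, and without Wt sham replicate 2 it was 2.94.

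Within LXRα-Tg, the differences between TAC and sham were not resolved from their errors, which does not show that they were small. LXRα-Tg TAC stood against LXRα-Tg sham at −0.34 (standard error 0.89) for Myl4, −0.31 (1.08) for Sln, −0.29 (0.41) for Dkk3 and −0.14 (0.87) for Myl7, each smaller than its standard error. Against Wt TAC the arrays of LXRα-Tg TAC stood at 0.60 (1.01) for Sln, 0.48 (0.83) for Myl4, 0.43 (0.81) for Myl7 and 0.42 (0.38) for Dkk3. The difference between the TAC effects of the 2 labelled genotypes was −2.64 (1.48) for Sln, −2.12 (1.21) for Myl4, −1.93 (1.19) for Myl7 and −1.39 (0.56) for Dkk3. In these 3 comparisons limma called 0 of 7837 genes (0%). An unadjusted p under 0.05 was reached by 552 genes (7.04%), 370 (4.72%) and 803 (10.2%), and the groups of each member overlapped. Leaving out LXRα-Tg TAC replicate 1 turned the median of the members within LXRα-Tg from −0.30 to 0.47, and leaving out replicate 3 took it to −0.81. Without the 5 arrays that go against Nr1h3 that median was −1.10, with LXRα-Tg sham replicate 3 alone. On slide 1 alone, where both groups are replicate 1 alone, it was −1.34, and on slide 2 alone 0.18.

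**Figure D2:**
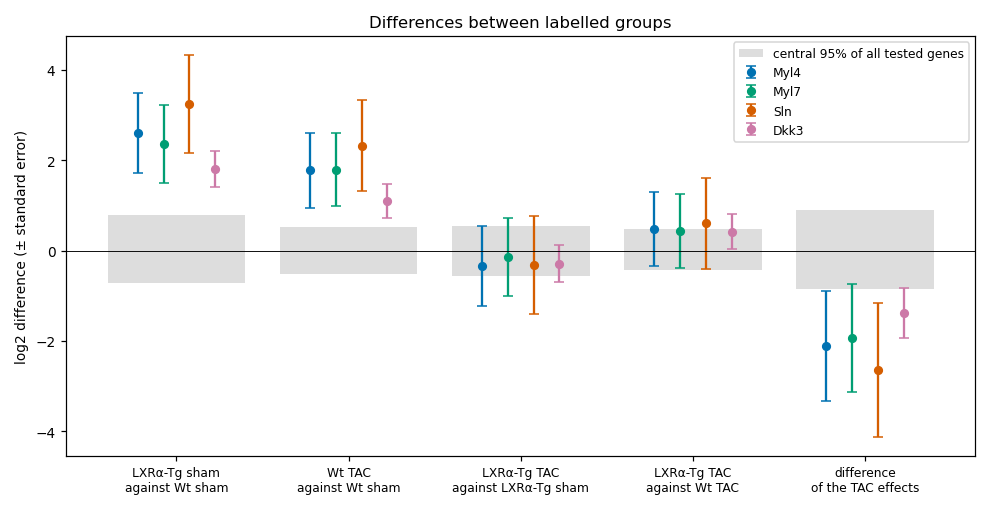
Log2 differences between labelled groups for the 4 members that passed the filter, with standard errors, beside the central 95% of all tested genes (grey). The members lie between 1.81 and 3.24 in LXRα-Tg sham against Wt sham and between −0.34 and −0.14 in LXRα-Tg TAC against LXRα-Tg sham.

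**Figure D3:**
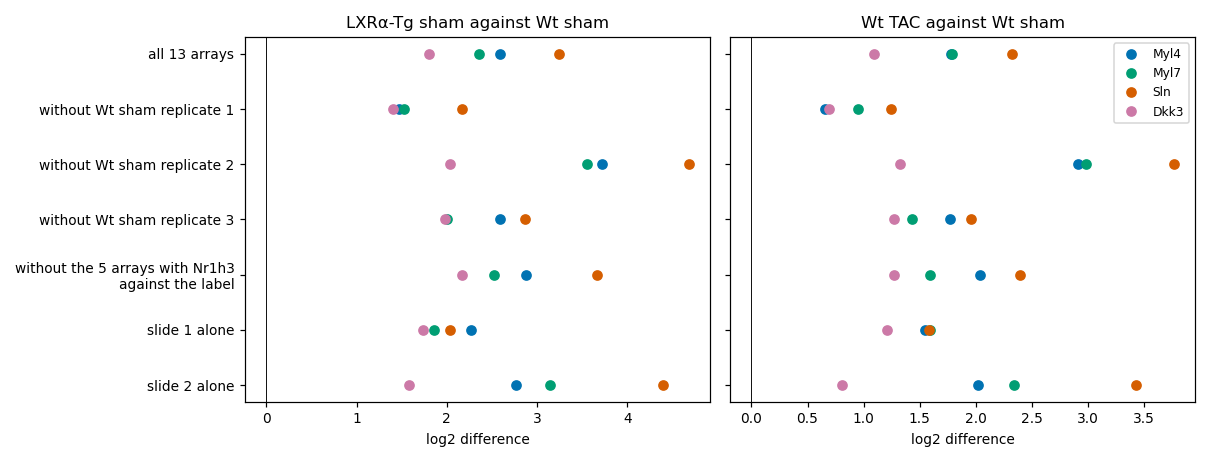
Log2 differences of the 4 members in the comparisons that use Wt sham, with all 13 arrays and with arrays left out. For LXRα-Tg sham against Wt sham, Sln ranges from 2.04 on slide 1 alone to 4.68 without Wt sham replicate 2, and the points of both panels lie above 0. LXRα-Tg sham is replicate 1 alone on slide 1 and replicate 3 alone without the 5 arrays. Wt sham is replicate 3 alone on slide 2.

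The members varied widely between arrays, also within labelled groups. From the lowest to the highest array Myl4 spanned 5.59 on the log2 scale and Dkk3 3.23, both detected on 13 of 13 arrays. Sln spanned at least 5.20 and Myl7 at least 4.08, since Wt sham replicate 1 gives only a bound there, set at the lowest detected level of that array. The median of all 7837 genes was 0.83.

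The 4 members moved together across the arrays. Over 13 arrays Pearson's r was 0.977 for Myl4 with Sln, 0.967 for Myl7 with Sln and 0.959 for Myl4 with Myl7 (Spearman's rho 0.956, 0.879 and 0.797). For Dkk3 r was 0.888 with Myl4, 0.835 with Sln and 0.809 with Myl7 (rho 0.912, 0.841 and 0.665). By r these 3 pairs were the lowest, but by rho Dkk3 with Myl4 stood above Myl7 with Sln and with Myl4. These are descriptions of genes chosen for moving together, and the arrays share labelled groups and slides. With the group means subtracted r was 0.930 to 0.959 among Myl4, Myl7 and Sln, and 0.647 to 0.800 with Dkk3. Among Myl4, Myl7 and Sln it was 0.989 to 0.990 within slide 1 (6 arrays) and 0.965 to 0.972 within slide 2 (7 arrays). Without the 2 arrays farthest from the median, r was 0.868 to 0.953 among these 3 genes and 0.528 to 0.727 with Dkk3. Of 15 pairs of arrays of the same group, Myl4 and Sln put all 15 in the same order. Dkk3 put 13 in the same order as Myl4 and as Sln, and the 3 pairs with Myl7 agreed on 11.

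A score, the mean over the 4 members of the log2 value minus the gene's own mean, puts the arrays in order. Wt sham replicate 1 had −3.35 and Wt sham replicate 3 −1.91. LXRα-Tg TAC replicate 1 followed with −0.72, then Wt TAC replicates 2 and 3 with −0.53 and −0.26. The other 8 arrays lay between 0.37 (Wt sham replicate 2) and 1.56 (LXRα-Tg TAC replicate 3). The 3 LXRα-Tg sham arrays lay at 0.49, 0.81 and 1.32, closer together than the arrays of Wt sham or LXRα-Tg TAC. The lowest and the highest array were those without detected Eif2s3y. The 5 arrays with high Nr1h3 had scores of −1.91 to 1.32 and the 8 with low Nr1h3 −3.35 to 1.56. Slide 1 held scores of −3.35 to 0.52 and slide 2 of −1.91 to 1.56. The differences were also computed without the arrays concerned and within slides. Without the 5 arrays that go against Nr1h3 the median of the members was 2.70 in LXRα-Tg sham against Wt sham and 1.81 in Wt TAC against Wt sham. Without the 2 arrays lacking Eif2s3y it was 1.50 and 0.82. It was 1.95 and 1.57 within slide 1, and 2.96 and 2.18 within slide 2. Without the 5 arrays LXRα-Tg sham was replicate 3 alone. Within slide 1 LXRα-Tg sham was replicate 1 alone, and within slide 2 Wt sham was replicate 3 alone.

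**Figure D4:**
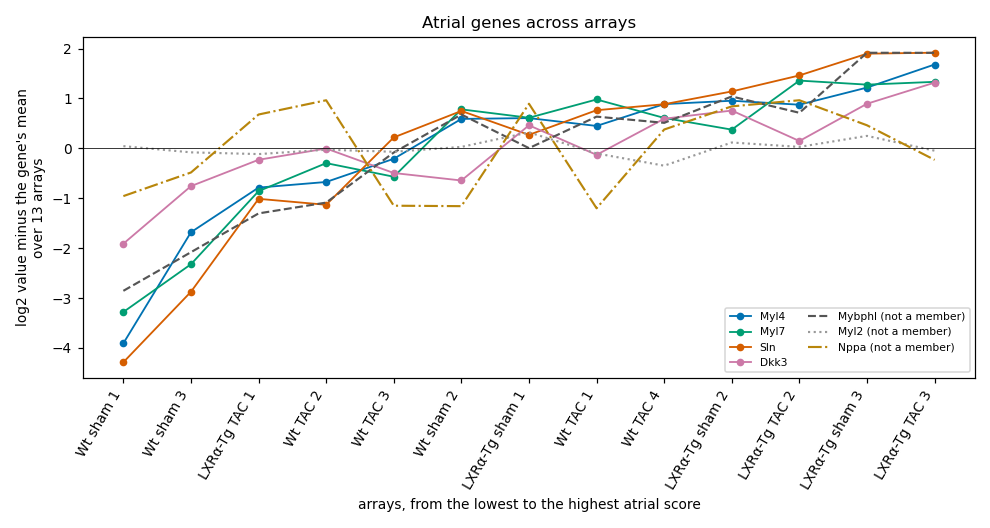
Log2 value minus the gene's mean for the 4 members and for Mybphl, Nppa and Myl2, over the 13 arrays in order of the atrial score (−3.35 on the left, 1.56 on the right). Mybphl follows the members (r = 0.961), while Nppa (r = 0.338) and Myl2 (r = 0.128) follow the order less closely.

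The gene most like the score was another atrial one. Mybphl, which encodes a myosin-binding protein of the atria, had r = 0.961 and rho = 0.951 with the score over 13 arrays, and 0.952 without the 2 farthest arrays. Its signal was −2.0 and 15.9, neither detected, on Wt sham replicates 1 and 3, and 236.2 on replicate 2. The Wt TAC arrays read 242.5, 54.8, 127.5 and 222.1, those of LXRα-Tg sham 145.8, 374.3 and 512.5, and those of LXRα-Tg TAC 51.1, 157.5 and 447.4. The arrays low for the members were low for Mybphl too, and its log2 range was at least 3.96. The fitted difference of LXRα-Tg sham from Wt sham was 2.41 (standard error 0.91, limma adjusted p = 0.209), which did not pass and rests on 1 Wt sham array of 3 with a detected signal.

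Of 7833 genes outside the members, 2 had r above 0.9 with the score, 23 above 0.8 and 6 below −0.8. After Mybphl came Ccdc3 (0.915), Atp8b1 (0.896), a phospholipid flippase, Gpr153 (0.876), Lxn (0.862), a carboxypeptidase inhibitor, and Fer (0.854), a tyrosine kinase. Cdc7 (0.849), Apobr (0.845), Ecrg4 (0.843) and Ltbp4 (0.832), which binds latent TGF-β, closed the 10. Without the 2 farthest arrays r was 0.833 for Ccdc3 but 0.492 for Lxn and 0.438 for Cdc7, which was detected on 3 arrays. The most opposite genes were Usp3 (−0.848), Tuba4a (−0.826), Tmem71 (−0.821), Pcnt (−0.819) and Ulk1 (−0.819, and −0.159 without the 2 farthest arrays). Some of these genes were near the floor: Tmem71 was detected on 4 arrays (at most 28.1), Apobr on 7 (at most 30.7) and Gpr153 on 8 (at most 42.8).

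Other genes of atrial cardiomyocytes mostly went less closely with the score. Of 19 listed, 15 are on the platform, 14 were detected on some array and 12 were tested, and limma called 0 of the 12 in any of the 5 comparisons. Mybphl was the 1 gene of the 12 with r above 0.8, and r ran from −0.397 (Pam) to 0.961 with a median of 0.207. In LXRα-Tg sham against Wt sham 6 of the 12 lay above 0, and the median was 0.00036. Nppa, the atrial natriuretic peptide, which stressed ventricles also make, read 6417.5 to 32018.6. Wt sham stood at a log2 level of 12.97 ± 0.35, Wt TAC at 13.58 ± 1.09, LXRα-Tg sham at 14.57 ± 0.24 and LXRα-Tg TAC at 14.31 ± 0.62. Its r with the score was 0.338, and 0.022 without the 2 farthest arrays. The difference of Nppa in LXRα-Tg sham against Wt sham was 1.60 (standard error 0.50, limma adjusted p = 0.135). Kcna5, an atrial potassium channel (r = −0.118), and Gja5, connexin 40 (r = 0.522), were dim, at 2.7 to 36.3 and 30.2 to 88.5. In bulk RNA, fewer cells of a type and less RNA per cell cannot be told apart.

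The ventricular counterparts of the members went less closely with the score. Of 6 ventricular genes 5 were tested and limma called 0 in any comparison, where 1.58% of all genes were called in LXRα-Tg sham against Wt sham and 0% in the others. Their median in LXRα-Tg sham against Wt sham was 0.035. Myl2, the ventricular counterpart of Myl7, had r = 0.128 with the score and a difference of 0.23 (standard error 0.12, limma adjusted p = 0.388). Myl3, the counterpart of Myl4, had r = −0.216, and Irx4, a ventricular transcription factor that read 75.1 to 206.2, had r = 0.232. Pln, the counterpart of Sln, read 870.3 to 3073.4 and had r = −0.459. Of the SERCA pump and its regulators 3 were tested and 0 called. Atp2a2, the cardiac pump itself, had r = −0.347. Myl2, Myl3 and Atp2a2 (19929.2 to 31507.4) read near the highest signal of any probe on an array, which was 26584.5 to 35349.7. Nppa also reached 32018.6. The top of the scale could limit how far these genes move, and this was not tested.

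The genes of the pathways around the members are counted beside the same share of 1.58% of all genes in LXRα-Tg sham against Wt sham. Of 21 BMP9 and BMP10 ligands, receptors, Smads and targets, 13 were tested and limma called 0 in any comparison, with a median of 0.035 in LXRα-Tg sham against Wt sham. Gdf2, which encodes BMP9, and Bmp2, Bmp6 and Bmpr2 were detected on 0 arrays, while Acvrl1, the receptor ALK1 of BMP10, was detected on 6. Of 14 Dickkopf relatives, Wnt coreceptors and secreted Wnt antagonists, 7 were tested and 0 called. Dkk1, Dkk2 and Dkk4 were detected on 0 arrays, so Dkk3 was the 1 Dickkopf gene of these 4 that was detected. Of 15 myosin chains and their kinases 10 were tested and 1 was called in LXRα-Tg sham against Wt sham, Myh7, the fetal heavy chain (2.81 higher, standard error 0.61, limma adjusted p = 0.0400). Of 8 hypertrophy and fetal genes 2 were called there, Myh7 and the calcineurin inhibitor Rcan1 (1.86 higher, standard error 0.41, limma adjusted p = 0.0408), and 7 of 8 lay above 0. Each of these 2 calls held in 5 of 13 fits that left out 1 array, and neither held without Wt sham replicate 1, where no gene was called. Myh7 read 890.2 and 763.7 on LXRα-Tg sham replicates 1 and 2, where Nr1h3 was low. It read 132.0 on replicate 3, where Nr1h3 was high. Rcan1 was highest on LXRα-Tg sham replicate 1 (5279.3). Both calls therefore hold for the labels and do not isolate the transgene.

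Markers of other cell types were set beside the score. Of 7 fibroblast genes 6 were tested, and in LXRα-Tg sham against Wt sham 6 of 6 lay above 0 with a median of 0.62. Lum, a matrix proteoglycan, was called (1.08 higher, standard error 0.20, limma adjusted p = 0.0256), a call that held in 8 of 13 fits without 1 array. It was lost without Wt sham replicate 1 or 2 and without any 1 of the LXRα-Tg sham arrays. The summed signal of the list was 7610.8 to 10407.1 for Wt sham, 11909.8 to 12585.5 for Wt TAC, 11347.4 to 14992.6 for LXRα-Tg sham and 9735.0 to 13110.1 for LXRα-Tg TAC. Postn was detected on 0 arrays. With the 6 fibroblast genes Dkk3 had r of 0.231 (Col1a2) to 0.684 (Col1a1), and their part in the Dkk3 difference was not tested. The other members were much alike in this, with r to Col1a1 of 0.642 (Myl4), 0.607 (Myl7) and 0.655 (Sln). For Lum r was 0.679 with Dkk3, but 0.437 with Myl4, 0.374 with Myl7 and 0.414 with Sln. Vascular smooth muscle genes summed to 4797.1 to 10087.0 over the arrays, with r of −0.096 to 0.621. Skeletal muscle genes, since Sln is also made there, summed to 36.4 to 156.1, and 6 of the 9 on the platform were detected on 0 arrays, among them Myh1, Myh4, Actn3 and Tnnt3. Pvalb was detected on 12 arrays (up to 96.7), Tnni2 on 8 (up to 44.9) and Mylpf on 3 (up to 22.9), and their r with the score was −0.560 to 0.128. Sums of the epicardial genes were 49.5 to 200.7 and of the conduction genes 78.4 to 166.0. In these 4 lists limma called 0 genes in any comparison.

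**Figure D5:**
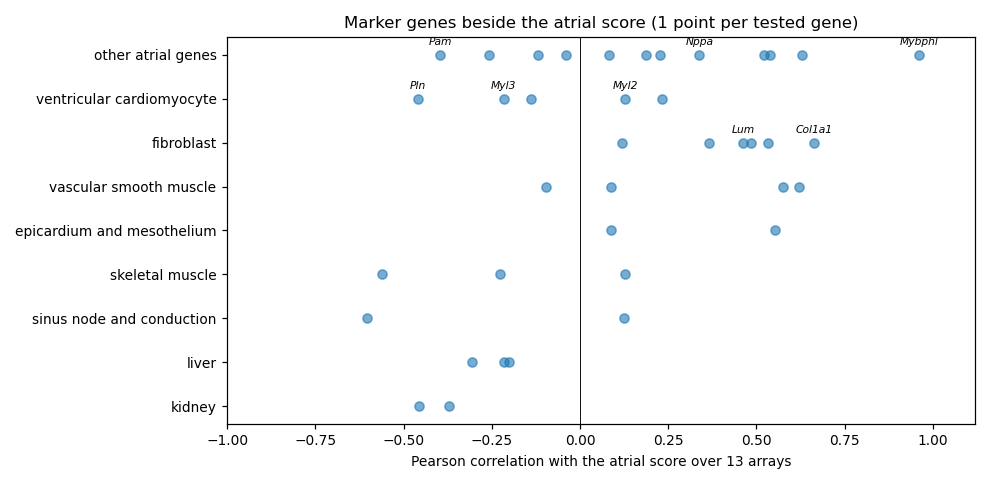
Pearson correlation of each tested marker gene with the atrial score over 13 arrays, 1 point per gene and 1 row per list. Mybphl stands alone at 0.961, the ventricular genes lie between −0.459 and 0.232, and the fibroblast genes between 0.118 and 0.662.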

How the data were processed

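LV RNA was measured on 13 arrays in 4 groups taken from the sample labels. The authors deposited a linear signal intensity for each of 25697 probes, background-subtracted in GenomeStudio 2011.1 per the submitters' notes and not normalized between arrays. The detection p-value in the deposited table compares a probe with the negative controls of its array. The authors' processed intensity table, in which all arrays have the median 6.5, was an alternative. Per array 9454 to 10392 probes were detected (detection p under 0.01), and the number of arrays limits the precision.

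Signals were corrected and quantile normalized by neqc (limma 3.58.1, R 4.3.3, offset 16). A probe had to be detected on at least 3 arrays, the brightest per gene was used, and a group-means model with 5 comparisons was fitted to 7837 genes (9 residual degrees of freedom). P-values were adjusted by Benjamini-Hochberg and called under 0.05. The fit was tested on simulated data. Genes named besides the members are fixed references, the 10 most and 5 least alike genes, and called or illustrative list members. Kcna5, Gja5, Pam, Acvrl1, Pvalb, Tnni2, Mylpf and the undetected genes named were chosen after their values were seen. The members and the lists were chosen with earlier results of these data known. Alternatives were the normalization, background, processed table, filter, probe choice, slide, arrays left out and the methods' t-test, run unpaired. Figures were drawn with matplotlib 3.10.9.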

Additional observations from a re-analysis of the deposited data

How the results depend on the processing

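No paired analysis was possible because the labels give the arrays no replicate numbers. The count of genes called in LXRα-Tg sham against Wt sham was 124 in the fit reported, 0 to 129 with 1 array left out (of the Wt sham arrays, 0 without replicate 1 and 12 without replicate 2; of the LXRα-Tg sham arrays, 48, 0 and 11 without replicates 1, 2 and 3), 71 with no filter on dim probes, 0 on slide 1 alone, 6 on slide 2 alone, 6 without the 5 arrays that go against Nr1h3 and 0 without the 2 arrays lacking Eif2s3y. The methods' t-test called 1036 genes unadjusted and 0 after Benjamini-Hochberg. The split between higher and lower genes was 102 and 22, and 174 and 2 with median scaling. The Dkk3 call held in 3 of 13 fits without 1 array and in 4 of 10 other alternatives. It was lost with no filter, with slide as a block, on each slide alone and without the 5 arrays or the 2 arrays. On slide 2 alone (3 residual degrees of freedom) Sln passed in place of Dkk3, there and in Wt TAC against Wt sham.

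In the other comparisons 0 genes were called in the fit reported. For Wt TAC against Wt sham the count was 7 on slide 2 alone, 529 by the unadjusted t-test, and 0 to 3 with 1 array left out (3 without Wt TAC replicate 4). For LXRα-Tg TAC against LXRα-Tg sham it was 1 with slide as a block, 53 on slide 1 alone, 1 without the 5 arrays, 474 by the unadjusted t-test and 0 with any 1 array left out. Between the TAC groups it was 71 on slide 1 alone, 7 without the 5 arrays, 359 by the unadjusted t-test and 0 with any 1 array left out. For the difference of the TAC effects it was 46 with median scaling, 55 on slide 1 alone, 1 on slide 2 alone and 0 to 2 with 1 array left out. Each slide alone leaves 6 or 7 arrays, and an array that is then alone in its group is assumed to vary like the others. Otherwise the cause was not tested.

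With 1 array left out the median of the members was 1.50 to 3.64 in LXRα-Tg sham against Wt sham, 0.82 to 2.94 in Wt TAC against Wt sham, −0.81 to 0.47 in LXRα-Tg TAC against LXRα-Tg sham, 0.0040 to 1.16 in LXRα-Tg TAC against Wt TAC and −3.18 to −1.05 in the difference. On slide 1 alone it was −0.75 in LXRα-Tg TAC against Wt TAC, where the fit reported gave 0.45, and without the 5 arrays it was −0.21. Median scaling moved the median of all genes by 0.16, 0.18, −0.18, −0.19 and −0.36 in the 5 comparisons, and the members' median was then 2.58, 1.95, −0.49, 0.21 and −2.37. Of 460 values of single members under the alternatives 455 moved by less than 1 pooled SD of the gene (0.58 for Dkk3 to 1.58 for Sln). Many of the 460 could not move, since leaving out an array outside the compared groups leaves a difference as it was. The 455 are therefore no measure of stability. In the comparisons within LXRα-Tg and between the TAC groups 21 values changed sign. The median correlation between members was 0.924, 0.858 to 0.953 with 1 array left out and 0.798 without the 2 farthest arrays. These settings of the correlation were chosen after seeing the data.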
